A study of Mus musculus with 2 samples.

Results

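The fibrillar collagen genes described here are *Col1a1*, *Col1a2*, *Col2a1*, *Col3a1*, *Col5a1*, *Col5a2*, *Col5a3*, *Col11a1* and *Col11a2*, taken by symbol from the count matrices, so 9 of the 32285 listed genes. Each was followed across the mesenchymal cell types of 2 single-cell RNA-seq libraries, with blood cells of the same libraries as the background. The libraries come from Clec3b.creERT2; Ai14.R26.tdTomato mice, described as male littermates aged 6 weeks at surgery, in which tamoxifen was given 2 weeks before a pin-stabilized fracture of the right femur. Cre under the *Clec3b* promoter switches on tdTomato for good, so tdTomato+ cells are cells that expressed *Clec3b* at the time of tamoxifen, or their progeny. Blood and endothelial cells were also found in the sorted cells. The authors report no meaningful tdTomato level in them and treat them as artifacts of cell sorting. Femoral diaphyses with muscle from the uninjured limbs (intact) and fracture calluses (callus) were collected 3 weeks after surgery, the tissue of 3 mice was pooled, and sorted tdTomato+ cells gave 1 library per condition. Both groups therefore share genotype, tamoxifen, surgery and age, mice cannot be told apart, and there are no biological replicates.

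Fibrillar collagens are the rope-like proteins of connective tissue: 3 chains wind into a triple helix, and the helices pack side by side into fibrils. *Col1a1* and *Col1a2* encode the chains of type I collagen, the bulk collagen of bone and tendon, and *Col3a1* encodes type III, which is abundant in skin, muscle sheaths and early repair tissue. Type V (*Col5a1*, *Col5a2*, *Col5a3*) and type XI (*Col11a1*, *Col11a2*) are minor collagens that start fibrils and limit their width, type XI with type II (*Col2a1*) in cartilage, although chains of types V and XI can also combine with each other. In endochondral fracture repair, bone rich in type I collagen replaces cartilage rich in type II.

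A filter of 500 or more genes and no more than 10% of mitochondrial UMIs (unique molecular identifiers, each standing for 1 captured transcript) kept 1207 of 1872 intact and 3295 of 3987 callus cells. The deposited totals were 12112002 UMIs (intact) and 36714322 UMIs (callus), with medians of 4939 and 6843 UMIs per kept cell. Although the mice are described as male, *Xist*, an RNA made from the inactive X chromosome of female cells, was found in 195 of 200 intact (97.5%) and 205 of 208 callus (98.6%) stromal cells with at least 5000 UMIs, and 4 Y-linked genes held 1 and 0 UMIs. The libraries share 1 cell barcode. No fibrillar collagen was used to name cells: mesenchymal markers gave 287 intact and 281 callus stromal cells, which further markers divided. *Pi16*-type fibroblasts (209 intact, 124 callus cells) had a median of 137 and 122 UMIs of the *Pi16* list per 10000, and *Col15a1*-type fibroblasts (37 and 19) 84.4 and 52.7 of the *Col15a1* list. *Thbs4*-type fibroblasts (14 and 52), which carry tendon genes, had 25.8 and 47.5 of the *Thbs4* list, but also 35.2 and 14.3 of the *Col15a1* list, so that in the intact group the *Col15a1* list was above their own. Osteoblast-like cells numbered 1 and 27, with a median of 614 UMIs of the osteoblast list in the callus. The limits for bone marrow stromal cells (BMSC) were passed by 2 intact and 35 callus cells. The callus cells, called BMSC-like, had a median of 244 UMIs of the BMSC list, and the next cell type list was that of the *Col15a1* type at 34.4. That list was led by *Lpl* (752 UMIs) and *Cxcl14* (362), with *Col15a1* itself at 0. By summed UMIs the osteoblast list came next, at 8143 per 1000000 UMIs against 4220 for the *Col15a1* list. *Ibsp* alone stood at 6815 there, against 3749 in osteoblast-like callus cells. The 2 intact cells went against the name, with 11.6 of the BMSC list against 83.0 of the *Pi16* list and 54.9 of the inflammatory *Pi16* list, and enter no comparison. The remaining 24 intact and 24 callus stromal cells met the limits of no other type. They are called in-between cells, whether they missed the list ratio or the number of markers. In the callus these in-between cells held 2855 CPM (UMIs per 1000000) of a mural cell list, with 6 of its 6 markers seen, against 36.0 CPM in the intact group and a median cell of 0 in both, and mural markers were not used to leave cells out. Levels are given as CPM, the UMIs of a gene in every 1000000 UMIs of the group, with exact 95% Poisson intervals. These cover counting error only, not differences between cells, mice or libraries, so no test between groups was made. UMIs from 3′ ends do not scale with transcript length, but capture and assignment at the 3′ end can differ between genes, which was not tested, so ratios between genes are ratios of UMIs.

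The 9 genes held 41270 UMIs in the kept intact cells, 98.0% of them in stromal cells, and 238633 in the kept callus cells, 89.3% of them in stromal cells. Their share of all UMIs was 1.58% (intact) and 2.55% (callus) for the *Pi16* type, 2.00% and 2.61% for the *Col15a1* type and 2.80% and 3.79% for the *Thbs4* type. In the 27 osteoblast-like callus cells they made up 24.8%, with single cells from 0.373% to 38.0% and a median of 26.3%. In the 35 BMSC-like callus cells the share was 0.578%. In blood cells (neutrophils, B lineage, T and NK cells, monocytes and macrophages) it was 0.00251% of UMIs in the intact and 0.00262% in the callus library.

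**Figure D1:**
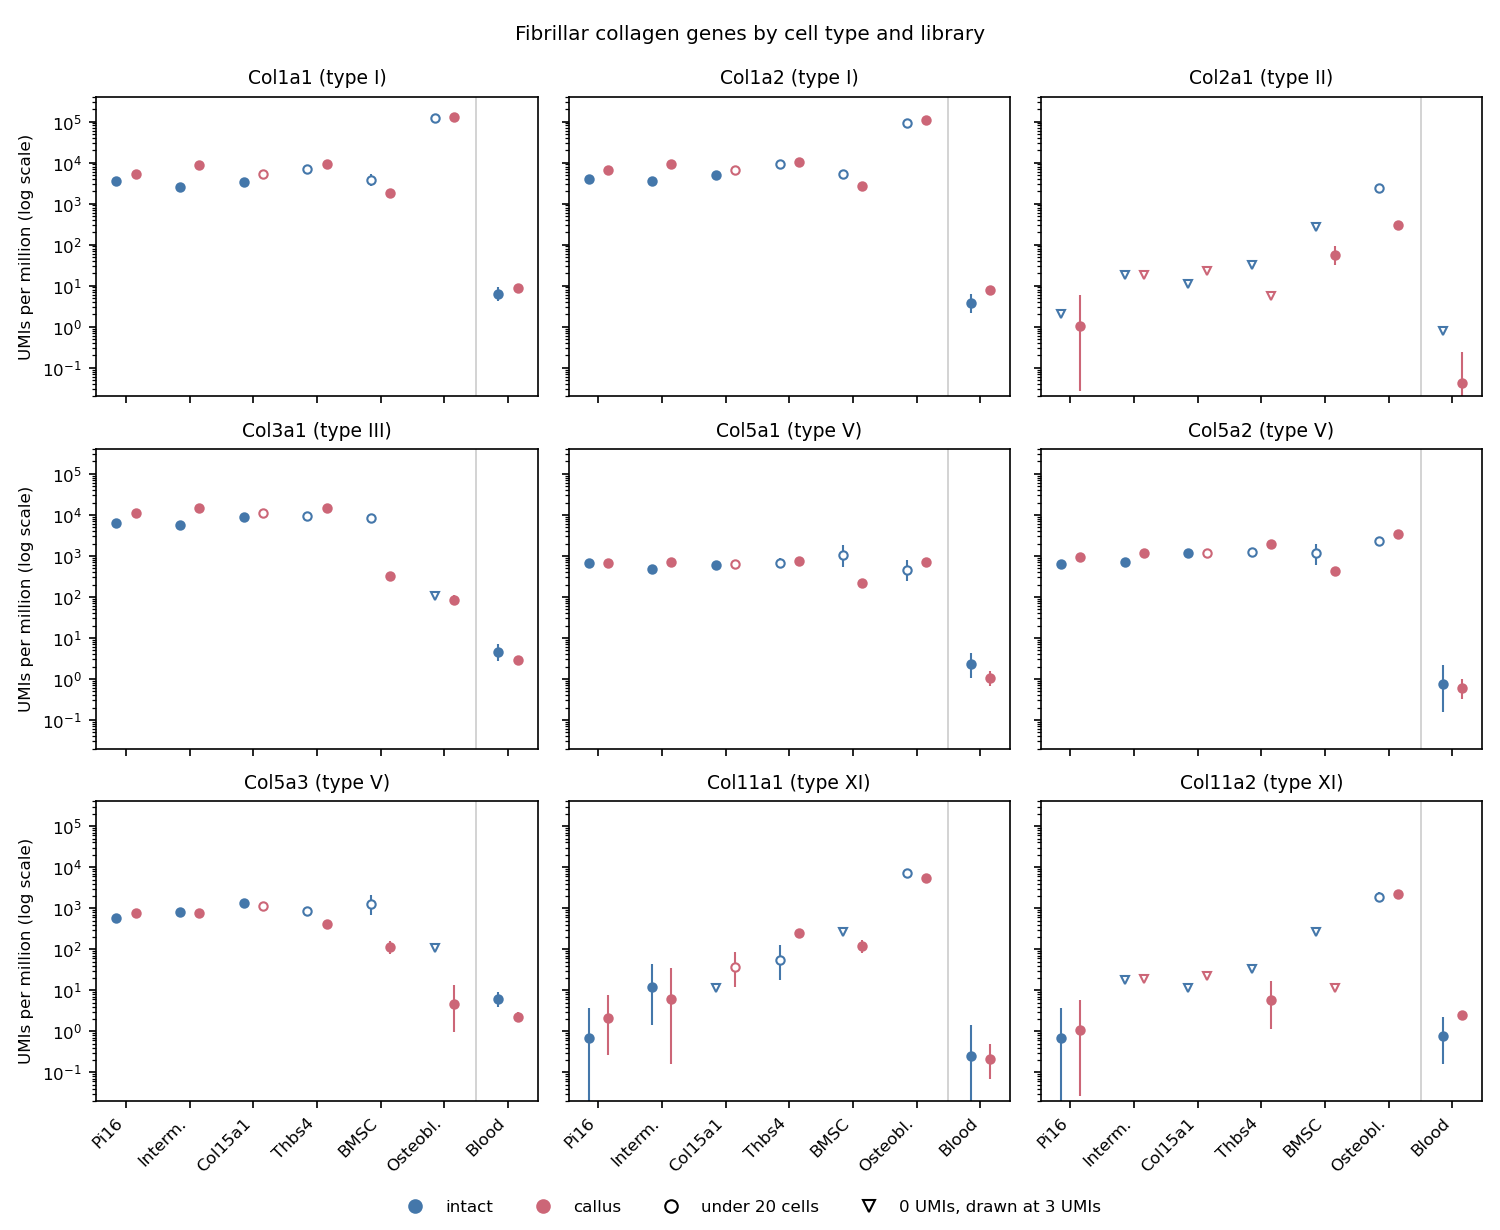
Level of each gene in CPM (log scale) by cell type, intact in blue and callus in red, with exact 95% Poisson intervals where they are wider than the point. Open circles are groups of under 20 cells, and open triangles are groups with 0 UMIs drawn at the level of 3 UMIs. The intact point of the BMSC-like type is the 2 cells that carried Pi16-type markers. Osteoblast-like cells sit above all other types for type I and type XI chains and near the bottom for Col3a1 and Col5a3.

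Type I transcripts were highest in osteoblast-like cells. *Col1a1* stood at 126031 CPM (95% interval 125160 to 126906) in the 27 osteoblast-like callus cells, where the lowest cell had 1864, the median cell 131998 and the highest 196678 CPM. Of these cells 25 were above 50000 CPM, the lowest of them at 50584, and 2 were below 10000. None of the 503 fibroblasts and in-between cells of both libraries exceeded 50000. The highest of them stood at 49415, so that the ranges nearly met at this limit. The single osteoblast-like cell of the intact library stood at 122947 CPM. Next in order came *Thbs4*-type cells, with 9432 (callus) and 6793 CPM (intact). The in-between cells of the callus, with the mural markers given above, stood at 8576 CPM, of which 1 cell gave 40.4%. *Col15a1*-type and *Pi16*-type callus cells had 5371 (4988 to 5776) and 5314 (5167 to 5463), and their intact counterparts 3277 (3065 to 3500) and 3513 (3419 to 3610). Within each of these 2 pairs the intervals overlapped, so that the order was not set at this depth. Of the UMIs of the 9 genes in *Col15a1*-type callus cells, 44.4% came from 1 cell. The in-between cells of the intact library had 2592 CPM, and the 2 intact cells past the BMSC limits, which carried *Pi16*-type markers, 3799. BMSC-like callus cells were lowest with 1783 CPM (1626 to 1951), and 51.5% of these UMIs came from 1 cell. Blood cells had 6.39 (intact) and 8.80 CPM (callus), far below the level of each stromal type.

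*Col1a2* had a like order, from 110093 CPM in osteoblast-like callus cells through 10468 in callus and 8992 in intact *Thbs4*-type cells to 6615 in callus and 4064 in intact *Pi16*-type cells and 2746 in BMSC-like callus cells. The balance of the 2 chains differed: there were 0.864 *Col1a1* UMIs per *Col1a2* UMI in intact *Pi16*-type cells, 0.803 in callus *Pi16*-type cells and 0.901 in callus *Thbs4*-type cells, against 1.14 (1.13 to 1.16) in osteoblast-like callus cells. The ratio was above 1 in 23 of the 27 osteoblast-like cells, but in 26 of the 107 callus *Pi16*-type cells and in 9 of the 49 callus *Thbs4*-type cells with at least 20 UMIs of the pair.

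Type III differed from type I in the osteoblast-like cells. *Col3a1* was the leading fibrillar collagen transcript of the fibroblasts, at 6338 (intact) and 11252 CPM (callus) for the *Pi16* type, 8662 and 11029 for the *Col15a1* type and 9357 and 14617 for the *Thbs4* type. It stood at 323 CPM (259 to 399) in BMSC-like and 83.2 CPM (62.3 to 109) in osteoblast-like callus cells, and the intact osteoblast-like cell had 0 UMIs, which allows up to 107 CPM at 3 counts. Of the 53 *Col3a1* UMIs in osteoblast-like callus cells, 29 lay in 1 cell. After thinning every cell to 2000 UMIs, *Col3a1* was seen in 112 of 112 callus *Pi16*-type cells, 15 of 33 BMSC-like cells (45.5%) and 1 of 25 osteoblast-like cells (4%), against 0.787% of blood cells. Without thinning the shares were 99.2%, 82.9%, 37.0% and 3.06%, at median depths of 7473, 7355, 25018 and 7283 UMIs. Thinning left out 12, 2, 2 and 58 cells of these groups for lack of depth.

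**Figure D2:**
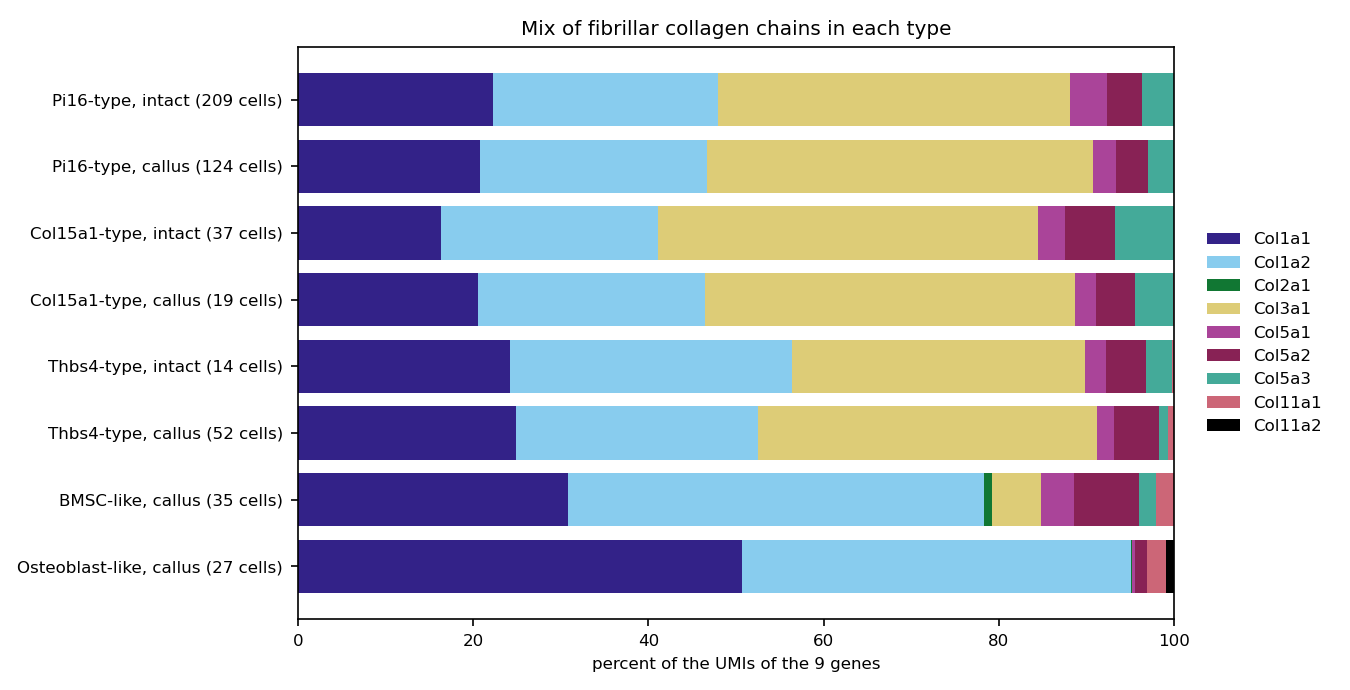
Share of each gene among the UMIs of all 9 genes, in percent, in each type and library. Col3a1 takes 40.1% and 44% in intact and callus Pi16-type cells and 0.0335% in osteoblast-like callus cells, where Col1a1 takes 50.7% and Col1a2 44.3%.

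Each of the 3 type V genes had its own order. *Col5a1* and *Col5a2* were spread more evenly over the stromal types than type I transcripts, and *Col5a3* was not. *Col5a1* was nearly level across the fibroblasts and osteoblast-like cells, at 669 (intact) and 678 CPM (callus) in *Pi16*-type cells, 760 in callus *Thbs4*-type cells and 708 (644 to 777) in osteoblast-like cells, and at 214 CPM in BMSC-like cells. *Col5a2* was highest where type I transcripts were highest, at 636 and 941 CPM in intact and callus *Pi16*-type cells, 1918 in callus *Thbs4*-type cells and 3434 in osteoblast-like cells. *Col5a3* had 1340 and 1121 CPM in intact and callus *Col15a1*-type cells, 576 and 747 in *Pi16*-type cells, 837 and 417 in *Thbs4*-type cells, 113 in BMSC-like cells and 4.71 (0.971 to 13.8, 3 UMIs, all in 1 cell) in osteoblast-like callus cells. The intact osteoblast-like cell had 0 *Col5a3* UMIs. As a result the ratio of *Col5a1* to *Col5a2* UMIs went from 1.05 (0.961 to 1.15) in intact *Pi16*-type cells to 0.720 in callus *Pi16*-type, 0.396 in callus *Thbs4*-type and 0.206 (0.186 to 0.228) in osteoblast-like cells.

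Type XI transcripts lay mainly in the osteoblast-like cells. *Col11a1* stood at 5481 CPM (5301 to 5666) in osteoblast-like callus cells, with a median cell at 4704 and the highest at 9722, and at 7213 in the intact osteoblast-like cell. *Pi16*-type cells held 1 *Col11a1* UMI among 209 intact and 2 among 124 callus cells. *Col11a2* stood at 2226 CPM (2112 to 2345) in osteoblast-like callus cells and 1857 in the intact cell, against 1 UMI in each *Pi16*-type group, 3 UMIs in callus *Thbs4*-type cells and 0 in BMSC-like callus cells. At least 1 *Col11a1* UMI was found in 26 of the 27 osteoblast-like callus cells (96.3%), in 16 of 35 BMSC-like cells (45.7%), in 13 of 52 callus *Thbs4*-type cells (25%) and in 0.239% of callus blood cells. Thinned to 2000 UMIs the shares were 88%, 24.2%, 15.4% and, with 0 of 2034 blood cells, up to 0.147%. Osteoblast-like cells carried more *Col11a1* than *Col5a2*, with 0.626 *Col5a2* UMIs per *Col11a1* UMI (0.594 to 0.661), while callus *Thbs4*-type cells carried 7.80. In the thinned cells both *Col5a2* and *Col11a1* were seen together in 21 of 25 osteoblast-like cells.

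*Col2a1*, the chain of cartilage collagen, was rare. The 67 UMIs of the intact library all lay in its single osteoblast-like cell (2393 CPM). In the callus 186 of the 202 UMIs in stromal cells lay in 9 osteoblast-like cells, 113 of them in 1 cell, which gave 292 CPM for the type, and 15 lay in 4 BMSC-like cells. Genes that define chondrocytes were few in the same cells. Of 9 chondrocyte markers, 5 had 0 UMIs in the osteoblast-like callus cells (*Cnmd*, *Matn1*, *Matn3*, *Ucma* and *Col10a1*), *Acan* and *Chad* had 2 each, *Hapln1* 6 and *Sox9* 12, and all 9 were at 0 in the intact cell. The callus cell with 113 *Col2a1* UMIs held 5 UMIs of the whole list.

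In *Thbs4*-type callus cells *Col11a1* reached 246 CPM (206 to 292) without *Col2a1*, which had 0 UMIs. Of its 131 UMIs, 59 lay in 1 cell, and without that cell the level was 144 CPM. The 13 cells with *Col11a1* held 91 UMIs of the chondrocyte list and the other 39 cells held 10, and the leading cell alone held 61. Of the markers *Acan* had 52, *Chad* 30, *Sox9* 18 and *Hapln1* 1 UMIs in the whole type. *Cnmd*, *Matn1*, *Matn3*, *Ucma* and *Col10a1* had 0. The part of the other cells with chondrocyte markers in the *Col11a1* level was not tested.

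**Figure D3:**
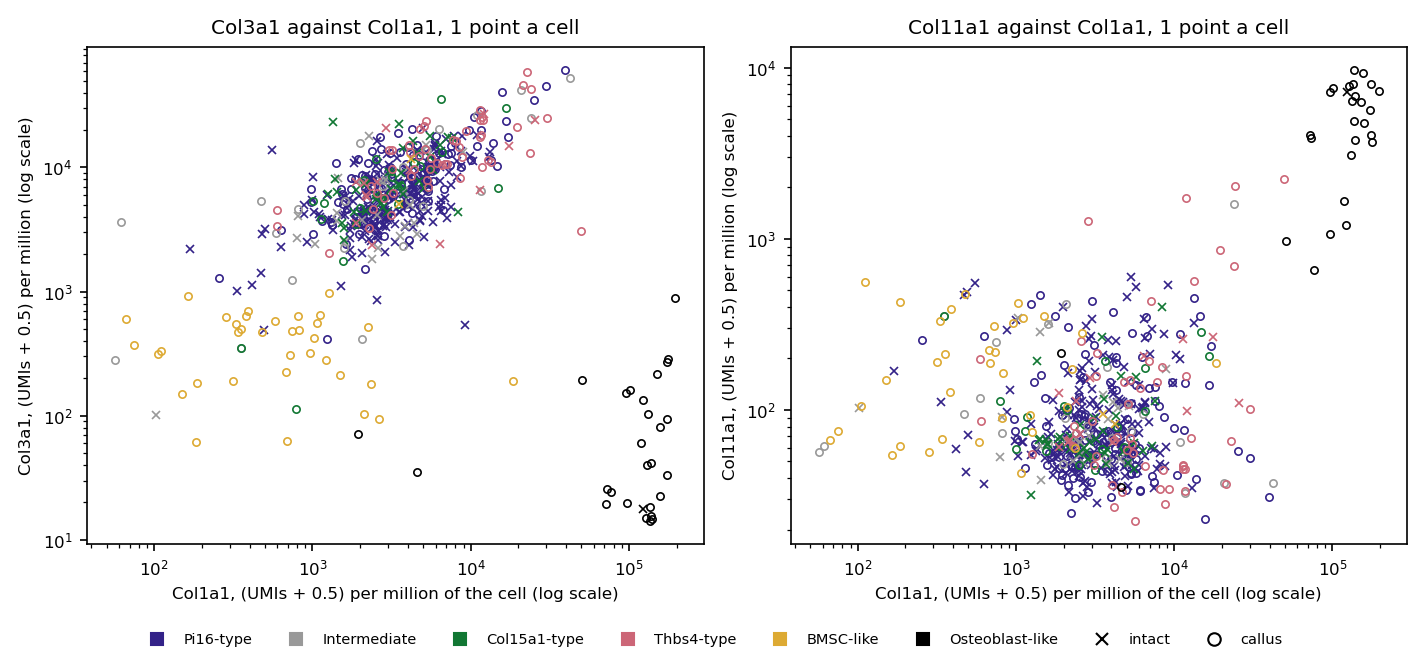
Single stromal cells, crosses for intact and circles for callus, by Col1a1 (x) and by Col3a1 (left) or Col11a1 (right), each as the CPM of the cell with 0.5 added to its UMIs, on log axes, so that the lower band of points holds cells with 0 UMIs. Fibroblasts line up along Col3a1 and Col1a1, and 25 of the 27 osteoblast-like callus cells lie above 50000 Col1a1 CPM with little Col3a1 and much Col11a1.

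The files count reads on mm10 (GRCm38), where *Col11a1* lies on chr3:114030540-114220718 (+), *Col11a2* on chr17:34039437-34066685 (+), *Col3a1* on chr1:45311538-45349706 (+) and *Col5a3* on chr9:20770050-20815067 (-), each a protein-coding gene. *Col3a1* and *Col5a2* are neighbours on chromosome 1, with 3′ ends facing each other 24614 bases apart, and in osteoblast-like callus cells they stood at 83.2 and 3434 CPM. The 250 bases before the RefSeq start (GRCm38.p6) are shown for the genes at the 2 ends of the osteoblast-like pattern, *Col11a1* and *Col11a2* being high and *Col3a1* and *Col5a3* nearly absent there. RefSeq promoters were found for 6 of the 9 genes. Capitals mark the CCAAT box (those 5 letters), the GC box, spelled GGGCGG, and the TATA box, spelled TATAAA, on either strand, and each sequence is written 5′ to 3′ on the strand of its gene.
*Col11a1* (chr3:114030290-114030539, +): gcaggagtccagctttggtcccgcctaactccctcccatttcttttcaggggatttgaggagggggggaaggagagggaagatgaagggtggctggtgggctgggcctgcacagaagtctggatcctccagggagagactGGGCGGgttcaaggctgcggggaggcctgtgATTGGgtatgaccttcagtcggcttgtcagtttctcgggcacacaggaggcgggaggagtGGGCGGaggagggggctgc
*Col11a2* (chr17:34038888-34039137, +): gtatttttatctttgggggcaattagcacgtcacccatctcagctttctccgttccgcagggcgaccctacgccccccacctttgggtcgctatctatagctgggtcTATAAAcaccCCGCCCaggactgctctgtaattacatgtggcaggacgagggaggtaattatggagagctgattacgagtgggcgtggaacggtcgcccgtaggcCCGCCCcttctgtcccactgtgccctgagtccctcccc
*Col3a1* (chr1:45311288-45311537, +): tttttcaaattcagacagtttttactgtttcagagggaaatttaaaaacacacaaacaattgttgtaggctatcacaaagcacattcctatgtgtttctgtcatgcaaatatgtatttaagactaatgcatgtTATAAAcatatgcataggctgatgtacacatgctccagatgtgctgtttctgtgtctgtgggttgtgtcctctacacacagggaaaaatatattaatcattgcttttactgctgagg
*Col5a3* (chr9:20815068-20815317, -): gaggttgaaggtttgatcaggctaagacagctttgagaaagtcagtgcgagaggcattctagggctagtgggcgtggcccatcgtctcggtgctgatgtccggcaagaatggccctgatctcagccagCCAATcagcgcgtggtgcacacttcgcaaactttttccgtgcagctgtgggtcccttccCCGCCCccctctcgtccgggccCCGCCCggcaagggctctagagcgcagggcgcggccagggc
*Col11a1* has 2 GC boxes and 1 CCAAT box, *Col11a2* 2 GC boxes and 1 TATA box, *Col5a3* 2 GC boxes and 1 CCAAT box, and *Col3a1* none but 1 TATA box, at 35.2% G and C against 57.6% to 62.8% in the other 3. Of 32851 mouse promoter windows 33.8% hold a CCAAT box, 32.7% a GC box and 12.4% a TATA box. TGTGGT, the core letters bound by RUNX factors, which act in bone cells, is in 14% of all windows and in none of the 6 windows found. No motif divides the high pair from the low pair, and these matches describe letters only, not binding.

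Within the callus, each type was set against the *Pi16*-type cells, and a gene was counted when it was at least 2-fold apart among genes with at least 20 UMIs in both groups together. In osteoblast-like cells all 9 genes could be compared: 6 were higher, where 7.4% of all compared genes were, and 2 were lower, where 40.4% of all genes were. *Col1a1* was 23.7-fold and *Col1a2* 16.6-fold higher (log2 ratio 4.57, 4.53 to 4.61, and 4.06, 4.02 to 4.09), and *Col5a2* 3.65-fold higher. *Col2a1*, *Col11a1* and *Col11a2* had log2 ratios of 8.10 (5.60 to 13.41), 11.33 (9.47 to 14.38) and 11.03 (8.55 to 16.33), with 1, 2 and 1 UMIs in the *Pi16*-type cells. These genes passed the minimum of 20 UMIs only through the osteoblast-like cells, so they could only be counted as higher. They are included in the 6 and in the median over the 9 genes. *Col3a1* was lower with a log2 ratio of -7.08 (-7.50 to -6.69) and *Col5a3* with -7.31 (-9.59 to -5.76), and *Col5a1* was at 0.06 (-0.11 to 0.24). *Col5a3*, with 3 UMIs in osteoblast-like cells, passed the minimum only through the *Pi16*-type cells, so it could only be counted as lower. The median was 4.06 over the 9 genes and -0.74 over all 7448 genes. Under median-of-ratios scaling the median of all genes was -0.31 and *Col5a1* was at 0.49, and the 6 higher and 2 lower genes kept their side. Of the genes called, 551 of 3562 (15.5%) were higher by total UMIs and 849 of 2986 (28.4%) by that scaling.

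BMSC-like cells, named for the reticular cells that surround vessels in the marrow and support blood formation, were low in nearly all chains. Of 7 genes compared with *Pi16*-type cells, 6 were at least 2-fold lower (15.4% of all genes) and 1 higher (15.8%). *Col3a1* had a log2 ratio of -5.12 (-5.44 to -4.81), *Col5a3* -2.73, *Col5a1* -1.66, *Col1a1* -1.58, *Col1a2* -1.27 and *Col5a2* -1.13 (-1.43 to -0.85). The higher gene, *Col11a1*, stood at 5.82 (3.85 to 8.93) with 32 against 2 UMIs. It passed the UMI minimum only through the BMSC-like cells, so it could only be counted as higher. 8 of the 35 BMSC-like cells also passed the osteoblast limits and held 386 of the 474 *Col1a1*, 14 of the 15 *Col2a1* and 15 of the 32 *Col11a1* UMIs. Without them the remaining 27 cells had 507 CPM of *Col1a1* (log2 ratio -3.39) and 415 CPM of *Col3a1* (-4.76). Set directly against BMSC-like cells, osteoblast-like cells were higher in 7 of the 9 genes (7.08% of all genes), from 3.30-fold for *Col5a1* to 70.7-fold for *Col1a1*, and at least 197-fold for *Col11a2*, taken against 3 UMIs over the BMSC-like group. Osteoblast-like cells were lower in 2 (40.4% of all genes), *Col3a1* (-1.96) and *Col5a3* (-4.58). With 0 UMIs in BMSC-like cells, *Col11a2* could only be counted as higher. With 3 UMIs in osteoblast-like cells, *Col5a3* could only be counted as lower.

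**Figure D4:**
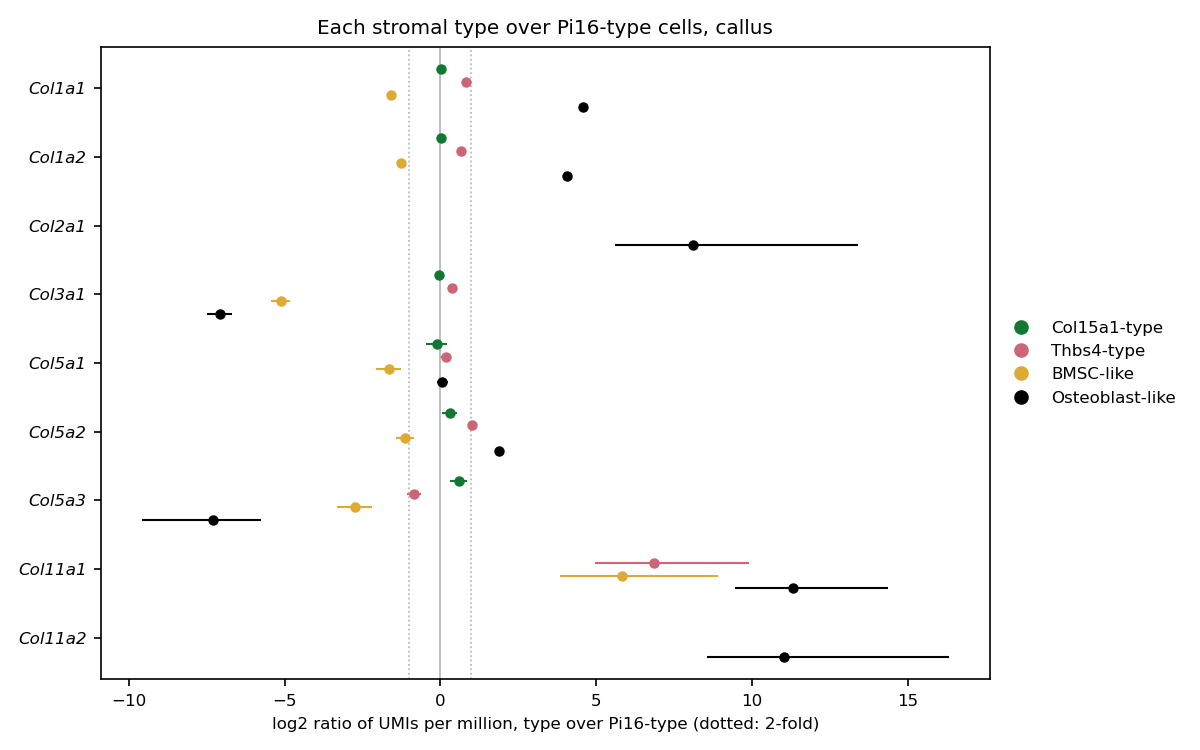
Log2 ratio of each type over Pi16-type cells within the callus, with exact 95% intervals for counting error and dotted lines at 2-fold. Genes with under 20 UMIs in both groups together are left out. Black points (osteoblast-like) run from -7.31 for Col5a3 to 11.33 for Col11a1, and green points (Col15a1-type) stay inside the 2-fold lines.

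Among the fibroblasts, *Thbs4*-type callus cells were at least 2-fold above *Pi16*-type cells in 2 of 7 compared genes (7.45% of all genes), *Col5a2* (1.03, 0.90 to 1.16) and *Col11a1* (6.85, 4.97 to 9.91), and below in 0 (9.48%), with *Col5a3* at -0.84. *Col11a1*, with 131 against 2 UMIs, passed the minimum only through the *Thbs4*-type cells, so it could only be counted as higher. *Col1a1* stood at 0.83 and *Col3a1* at 0.38. In the intact library, with 14 *Thbs4*-type cells, *Col1a2* (1.15, 1.04 to 1.25) and *Col5a2* (1.01, 0.72 to 1.28) were higher out of 6 genes (12.4% of all genes) and 0 were lower (13.9%). Intact *Col15a1*-type cells were above *Pi16*-type cells in *Col5a3* (1.22, 1.04 to 1.40), 1 of 6 genes (8.49% of all genes), and below in 0 (13.1%), with *Col5a2* at 0.87 and *Col1a1* at -0.10. In the callus 0 of 6 genes were 2-fold apart between these types (21.9% of all genes), with *Col5a3* at 0.59, and 1 of the 19 *Col15a1*-type cells held 50.0% of the *Col1a1* UMIs.

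The next question was whether the same fibroblast types carried more fibrillar collagen in the callus than in intact tissue. In *Pi16*-type cells 0 of the 6 compared genes were 2-fold apart between callus and intact (6.03% of all genes). *Col3a1* went from 6338 to 11252 CPM (log2 ratio 0.83, 0.79 to 0.87), *Col1a2* from 4064 to 6615 (0.70), *Col1a1* from 3513 to 5314 (0.60), *Col5a2* from 636 to 941 (0.56) and *Col5a3* from 576 to 747 (0.37), while *Col5a1* was at 669 and 678 (0.02, -0.13 to 0.16). The median over the 6 genes was 0.58 and over all 8776 genes 0.03. The median cell moved less than the sum for *Col1a1*, from 2938 to 3177 CPM, and for *Col3a1* from 5382 to 7982 CPM, and the highest callus cell held 12.7% of the *Col1a1* UMIs. With Leiden clusters in place of marker limits the ratios were 0.37 for *Col3a1* and 0.05 for *Col1a1*.

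*Pi16*-type cells were also split by *Ptx3*, *Has1* and *Tnfaip6*, genes of an inflammatory state, at 10 UMIs per 10000. In the inflammatory-low cells (96 intact, 65 callus) 1 of 6 genes was 2-fold apart between callus and intact (7.01% of all genes). This was *Col3a1*, higher in the callus at 1.11 (1.05 to 1.16), with *Col1a1* at 0.94. In the inflammatory-high cells (113 and 59) 0 of 6 genes were 2-fold apart (7.63%), with *Col3a1* at 0.44 and *Col1a1* at 0.19. Low against high cells were 2-fold apart in 0 of 6 genes in the intact (6.28%) and in the callus library (7.4%), with *Col3a1* at 0.11 (0.05 to 0.17) and 0.78 (0.72 to 0.84). The highest low callus cell held 16% of the UMIs of the 9 genes in that group.

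**Figure D5:**
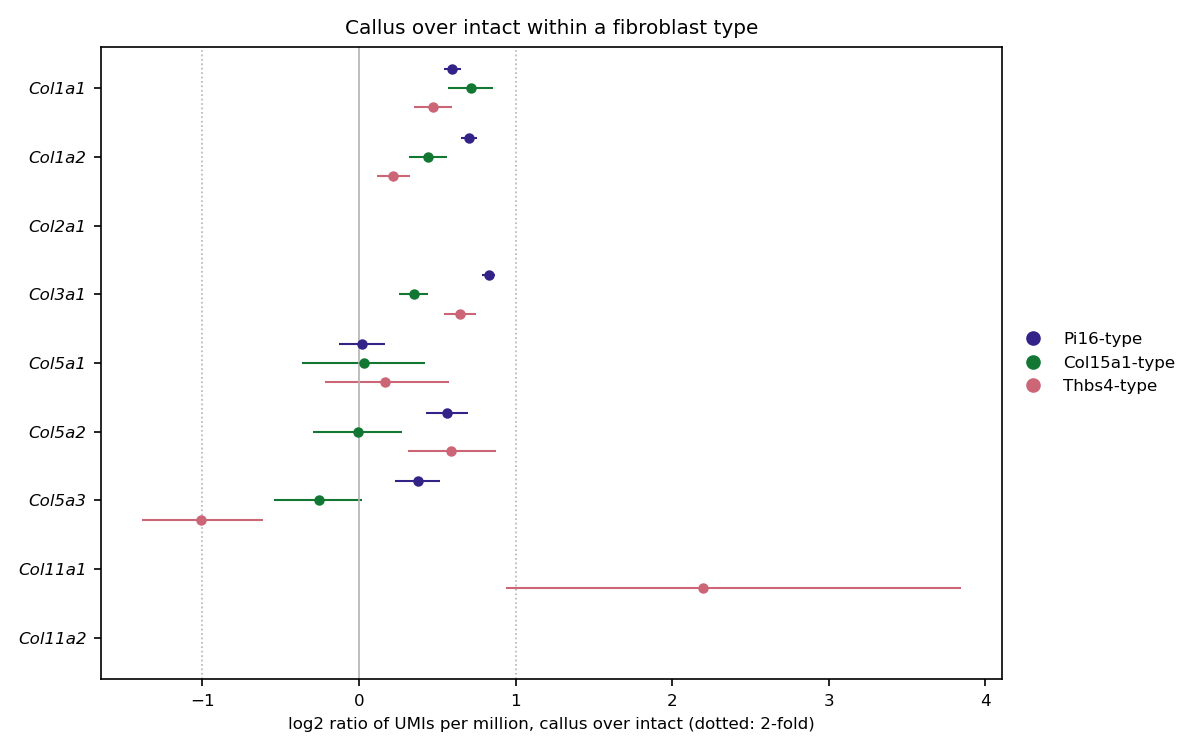
Log2 ratio of callus over intact within Pi16-type, Col15a1-type and Thbs4-type fibroblasts, with exact 95% intervals for counting error and dotted lines at 2-fold. Genes with under 20 UMIs in both groups together are left out. Type I and III genes lie between 0 and the 2-fold line in all 3 types, and in Thbs4-type cells Col5a3 (-1.01) and Col11a1 (2.20) lie outside the lines.

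In *Col15a1*-type cells 0 of 6 genes were 2-fold apart between callus and intact (13.7% of all genes), with *Col1a1* at 0.71 and *Col3a1* at 0.35. Without the callus cell that held most collagen these became 0.01 and -0.17. In *Thbs4*-type cells 7 genes could be compared. *Col11a1* was higher in the callus (2.20, 0.94 to 3.84), from 53.7 to 246 CPM (5 and 131 UMIs), 1 of 7 genes where 14.8% of all genes were. Of the 131 UMIs, 59 lay in 1 cell. *Col5a3* was lower (-1.01, -1.38 to -0.61, from 837 to 417 CPM), 1 of 7 where 6.89% of all genes were. Between the same groups the *Col15a1* list went from 3938 to 1507 CPM, the osteoblast list from 53.7 to 456 and the chondrocyte list from 10.7 to 190. The callus osteoblast value was led by *Ibsp* (194 UMIs) and *Alpl* (41). *Sp7* had 5 UMIs, *Bglap*, *Bglap2* and *Dmp1* had 1 each, and *Ifitm5*, *Phex* and *Mepe* had 0. The part of these lists in the ratios was not tested. *Col3a1* stood at 0.64, *Col5a2* at 0.59, *Col1a1* at 0.47 and *Col1a2* at 0.22. The intact group has 14 cells, and these values depend on how the type is drawn: with Leiden clusters (28 intact, 72 callus cells) 5 genes were at least 2-fold higher and *Col5a3* was at 0.18, and by median-of-ratios scaling *Col5a3* was at -0.84. Of the cells in the Leiden cluster named for this type, 49% were *Thbs4*-type by the marker limits.

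Genes that make, cross-link and accompany collagen fibrils were read from 4 lists. Of 32 processing genes 27 could be compared between osteoblast-like and *Pi16*-type callus cells: 11 were at least 2-fold higher and 4 lower, with a median of 0.56 against -0.74 for all genes, of which 7.4% were higher and 40.4% lower. Leading the higher ones were *Lox* (3.19), which starts the cross-linking of collagen and elastin, and *Plod2* (3.12), which hydroxylates telopeptide lysines for cross-links. *Loxl1* (-7.42), a lysyl oxidase linked to elastin, and *Colgalt2* (-4.08), a collagen galactosyltransferase, were lowest. Fibril-associated genes were mostly lower, 13 of 16 being lower and 2 higher, with a median of -3.73: *Dpt* (-9.14, 3 against 2501 UMIs), which helps fibrils form, was at 2664 CPM in *Pi16*-type and 4.71 in osteoblast-like cells, and *Col14a1* had 1248 and 0 UMIs, a bound of -8.14 taken at 3 UMIs. *Sparc* (3.28), a collagen-binding protein of bone, and *Bgn* (2.96), a small proteoglycan, were the 2 higher ones. *Col24a1*, a fibrillar collagen known from developing bone, had 89 UMIs (140 CPM) in osteoblast-like and 0 in *Pi16*-type callus cells, a bound of 5.45 taken at 3 UMIs, and *Col27a1*, known from cartilage, had 4 and 17. Of 6 collagen receptor genes *Itga10* was higher (4.97, 64 against 3 UMIs) and 3 were lower, among them *Ddr2* (-3.23) and *Itga2* (-2.83).

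In callus against intact *Pi16*-type cells, where 3.51% of all genes were at least 2-fold higher, 1 of 27 processing genes was, *Lox*, from 19.6 to 90.6 CPM (2.21, 1.59 to 2.87), followed by *Adamts14* at 0.94, and the median was 0.21. Of 16 fibril-associated genes 1 was higher, *Bgn*, from 47.9 to 221 CPM (2.20, 1.81 to 2.61), and *Tgfbi* stood at 0.92. *Col27a1* was at 1.58 (0.33 to 2.93, 9 and 17 UMIs), and 0 of 5 receptor genes were 2-fold apart. In *Thbs4*-type cells, where 14.8% of all genes were higher and 6.89% lower in the callus, 3 processing genes were higher and 3 lower of 24, and 4 fibril-associated genes were higher and 2 lower of 16. *Postn*, a matricellular protein of repair tissue, was at 4.79 (792 callus against 5 intact UMIs) and *Aspn* at 2.23, while *Prelp* was at -1.29. Among the processing genes *P3h4* was at 1.60 and *Plod2* at 1.21, and *Pcolce* was at -1.20 and *P4ha1* at -1.07. BMSC-like cells were higher than *Pi16*-type cells in 4 and lower in 2 of 25 processing genes, where 15.8% and 15.4% of all genes were, led by *Lox* (2.18) and *Fkbp10* (1.82), and lower in 9 and higher in 2 of 16 fibril-associated genes, with *Col12a1* at 3.73 and *Bgn* at 2.50. *Itga1*, a collagen-binding integrin, was at 6.51 there (103 against 4 UMIs). It passed the minimum of 20 UMIs only through the BMSC-like cells, so it could only be counted as higher.

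Across the 8 stromal groups of at least 20 cells, *Col1a1* and *Col1a2* levels went together with Pearson's r of 0.997 on log2(CPM + 10), a description over 8 groups, in which the osteoblast-like group stands far from the rest. Of 5763 genes outside the lists used for naming, the 5 closest to *Col1a1* were *Sparc* (0.978), *Serpinh1* (0.952), the collagen chaperone, *Serf2* (0.947), *Sec24d* (0.944), a coat protein of the vesicles that export procollagen, and *Mmp16* (0.938). For *Col3a1* they were *Arhgap10* (0.995), *Meg3*, *Ppp1r2*, *Evc* and *Tiparp* (0.985), and for *Col5a2* *Mmp16* (0.943), *Sec31a*, *Gpx7*, *Tmem119* and *Slc48a1* (0.902). *Col5a2* itself was nearer to *Col1a1* (0.909) than to *Col3a1* (-0.19), and *Col5a3* nearer to *Col3a1* (0.925) than to *Col1a1* (-0.72).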

How the data were processed

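Single-cell RNA-seq (10x Genomics, 3′ chemistry) of tdTomato+ cells gave 1 intact and 1 callus library. The authors deposited UMI counts per gene and cell barcode, made with Cell Ranger 6.0.0 on mm10 per the file headers and labels, and these raw counts were used as deposited. The annotation used for counting is not given in the sources used here.

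Cells with fewer than 500 genes or with mitochondrial UMIs above 10% were left out (665 intact, 692 callus). Stromal cells needed 4 of 12 mesenchymal markers and at most 2 blood and 2 endothelial or myogenic markers. Osteoblast-like cells needed 4 of 9 markers and BMSC-like cells 4 of 6. *Thbs4*-type fibroblasts needed 2 of 10 markers and 10 UMIs of that list per 10000, *Pi16*-type 3 of 8 markers with a *Pi16* to *Col15a1* list ratio of at least 4, and *Col15a1*-type 2 of 6 markers with a ratio below 1. No fibrillar collagen is a marker, and the limits were set after the marker counts had been seen. Near the limits lay 21 intact and 20 callus cells for the *Thbs4* type (5 to 20 UMIs per 10000), 11 and 9 for the *Pi16* type and 12 and 6 for the *Col15a1* type (within 0.5 of the log2 ratio), 0 and 19 for osteoblast-like and 20 and 21 for BMSC-like cells (3 or 4 markers), and 69 and 39 for the inflammatory split. These groups are ranges set by limits and not the clusters of the study. Members and gene lists were chosen with earlier results of these data known.

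UMIs were summed per group and given as CPM, with 95% exact Poisson, Clopper-Pearson (shares of cells) or conditional binomial (ratios) intervals, which cover counting error only. A count of 0 was read against 3 counts, and genes with at least 20 UMIs in both groups together were compared at a limit of 2-fold. All 9 genes are described, the 2 genes furthest apart in each direction are named from each list, and the 5 genes most like a member by Pearson's r are named among genes with at least 100 UMIs. Scrublet called 3 (0.249%) and 4 (0.121%) doublets, too few to trust, so no doublets were removed. Instead, the 18 and 105 cells with the highest scores were left out as an alternative. Cells with mesenchymal markers and more than 2 blood, endothelial or myogenic markers (5 intact, 30 callus) were kept out as mixed. The scripts were tested on simulated data. Other alternatives were cell filters, Leiden clusters made without the 9 genes, 1 more marker, thinning to 2000 UMIs, the mean of per-cell CPM, scaling, subtraction of neutrophil CPM and UMI minimums, and 2 were added after seeing the data (leaving out the cell with most collagen UMIs, and leaving out cells past both the osteoblast and BMSC limits). Python 3.11.15, numpy 2.4.6, scipy 1.17.1, pandas 2.3.3, scanpy 1.11.5, leidenalg 0.10.2 and matplotlib 3.10.9 were used.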

Additional observations from a re-analysis of the deposited data

Results flagged for a closer look

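*Col5a3* differed between callus and intact in opposite directions in 2 fibroblast types, with a log2 ratio of 0.37 in *Pi16*-type and -1.01 in *Thbs4*-type cells. Intact *Thbs4*-type cells carried more UMIs of the *Col15a1* list than of the *Thbs4* list (35.2 against 25.8 per 10000, callus 14.3 against 47.5), and with Leiden clusters the *Thbs4*-type value was 0.18, so that the directions were then not opposite. Of the cells in that Leiden cluster, 49% were *Thbs4*-type by the marker limits. With 1 library per condition the difference between these ratios was not tested.

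The 30 mixed callus cells were kept out of all types. They carried mesenchymal markers and more blood, endothelial or myogenic markers than the limits allowed. These mixed cells held *Col1a1* at 22609 CPM and *Col11a1* at 780 CPM, above the levels in blood cells. Both values were also above those of callus *Thbs4*-type cells (9432 and 246 CPM). The mixed callus cells had 6084 CPM of the osteoblast list, with 7 of its 9 markers seen and a median cell of 0. Their neutrophil list stood at 67478 CPM. Of the UMIs of the 9 genes in these cells, 48.5% came from 1 cell.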

How the results depend on the processing

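The 2-fold calls were mostly kept: of 245 recomputed ratios of genes called at 2-fold, 234 stayed past it and 1 changed sign, and of 378 ratios of genes not called, 4 passed it, all for the *Thbs4* type by Leiden clusters. The gene that changed sign was *Col5a3* in callus over intact *Thbs4*-type cells, at 0.18 with Leiden clusters. In that comparison the number of the 9 genes past 2-fold went from 2 to 5 with Leiden clusters (72 callus, 28 intact cells), and to 1, *Col11a1*, with 1 more marker (32 and 4 cells), without the highest Scrublet scores, thinned, as the mean of per-cell CPM, with CPM taken without the 9 genes and by median-of-ratios scaling. With no UMI minimum it went from 0 to 1 in callus over intact *Col15a1*-type cells and in *Col15a1*-type over *Pi16*-type callus cells, since fewer UMIs were needed for *Col11a1* to be compared.

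The *Col3a1* share of the 9 genes' UMIs in callus *Pi16*-type cells was 43.1% thinned and 42.7% as the mean of per-cell CPM. In callus *Thbs4*-type cells it was 36.3% with 1 more marker, 41.9% thinned and 39.7% as the mean of per-cell CPM, and in osteoblast-like callus cells 0.00894% thinned. *Col1a1* in blood cells was at 9.76 CPM (intact) and 11.3 CPM (callus) thinned, and at 14.3 CPM in the callus as the mean of per-cell CPM. When 2 UMIs were asked for, 0% of the *Pi16*-type cells of either library were positive for *Col2a1*, *Col11a1* or *Col11a2*. With 1 UMI the share was 43.8% (1 more marker) and 15.4% (thinned) of callus *Thbs4*-type cells. Where no value above shows it, the cause was not tested. In all, 22 of 182 such values moved.

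In callus over intact *Pi16*-type cells Leiden clusters gave 0.25 for *Col1a2* and -0.21 for *Col5a1*. In BMSC-like over *Pi16*-type cells *Col1a2* was at -0.95 and *Col5a2* at -0.92 with Leiden clusters, and *Col5a2* was at -0.95 thinned.

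Counts over all genes moved by more than 1.5 times with some settings. In the order callus over intact for *Pi16*-type, *Col15a1*-type and *Thbs4*-type cells, osteoblast-like and BMSC-like over *Pi16*-type cells, and *Col15a1*-type over *Pi16*-type cells in the intact and the callus library, the main counts were 529, 467, 1025, 3562, 2288, 1707 and 1449. They were 342, 129, 231, 1099, 986, 961 and 553 thinned, 1472, 2068, 2951, 5407, 3851, 3209 and 3290 with no UMI minimum, and 60, 57, 132, 1042, 619, 506 and 271 from 100 UMIs. With neutrophil CPM subtracted they were 2798, 1059, 2401, 4622, 3253 and 3565, leaving out the osteoblast-like comparison, which moved less. By median-of-ratios scaling the median of all genes moved from 0.07 to -0.12 (*Col15a1*-type) and 0.24 (*Thbs4*-type) in callus over intact, and from 0.13 to -0.22 for BMSC-like cells, where the share of higher calls went from 50.7% to 30.5%. No paired analysis was possible because each condition has 1 library of pooled mice. Depth limits *Col2a1*, *Col11a1* and *Col11a2* in *Pi16*-type cells, where 0 to 2 UMIs carry each value.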

Other observations

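Some blood cells carried single fibrillar collagen genes out of the ratio seen in stromal cells of the same library. In B lineage cells of the intact library *Col5a3* had 19 UMIs in 16 of 215 cells while *Col1a1* had 6 UMIs, that is 317 *Col5a3* UMIs per 100 of *Col1a1* (122 to 969), against 13.6 in stromal cells. In the callus B lineage *Col5a3* had 33 UMIs in 26 of 530 cells and *Col1a1* 35, or 94.3 per 100 (56.8 to 156), against 1.33 in stromal cells. Osteoblast-like cells held 80269 of the 92872 *Col1a1* UMIs of the callus stromal cells, which lowers that value. Callus *Pi16*-type cells held 701 *Col5a3* and 4988 *Col1a1* UMIs. *Col11a2* had 37 UMIs in 36 of 799 callus neutrophils, or 45.1 per 100 *Col1a1* UMIs (29.7 to 67.3), against 1.53 in stromal cells. Callus monocytes and macrophages had 14 *Col11a2* UMIs, or 17.9 per 100 (9.38 to 31.9), and the callus B lineage 5, or 14.3 per 100 (4.37 to 36.6). In intact neutrophils *Col11a2* had 3 UMIs among 294 cells.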
